A study of Mus musculus with 5 samples.

Results

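Genes of the Ly6 family encode small cell surface and secreted proteins, and 9 of them were followed in stem cells sorted from the hair follicles of mouse skin. The set is given by symbol (Ly6a, Ly6c1, Ly6d, Ly6e, Ly6g6c, Ly6h, Ly6k, Slurp1 and Lypd3), and these 9 genes are among 55357 genes of the deposited table. They were proposed with their levels in this comparison known, so their differences between groups are given as a description, without a test. Cells were sorted at postnatal day 75 by a gate that took CD34-positive cells with EpCAM and high α6 integrin and left out those with Sca1. Both groups carried Ring1a-/- and Ring1b flox/flox alleles and had 1% RU-486 applied to the skin daily for 10 days from postnatal day 50, with skin taken 15 days after the last treatment. The 2 Control libraries (replicates 1 and 3 by title) lacked Cre. The 3 PRC1 i2KO libraries also carried K15-CrePR1, a Cre recombinase under a keratin 15 promoter that RU-486 activates. Ring1a and Ring1b are the catalytic subunits of the Polycomb complex PRC1, and since the controls lack Ring1a too, the groups differ by Cre and by what Cre deletes in cells with keratin 15 promoter activity. No label says that libraries came from separate animals, so SDs and p-values measure only the spread between these libraries, which may be technical.

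Ly6 proteins share a compact fold held by disulfide bonds, known as the LU domain. Most are tied to the outer face of the plasma membrane by a glycosylphosphatidylinositol (GPI) anchor, while Slurp1 is secreted. Family members serve as surface markers of stem and immune cells, bind nicotinic acetylcholine receptors, inhibit complement or bind urokinase. In mice many of the genes lie in a cluster on chromosome 15.

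Libraries held 8270419 to 32463173 estimated reads, the lowest and the highest both in Control. A level in CPM is a gene's reads divided by its library's scaled total, and 3 reads in a library equal 0.0933 CPM in the deepest and 0.369 CPM in the shallowest. TPM values, from the authors' table, also divide by gene length and were used to compare genes with each other. Of 15665 genes with enough reads to test, 5310 (33.9%) had an adjusted p below 0.05 in edgeR's quasi-likelihood test and are named as called, 18.8% of tested genes being higher and 15.1% lower in PRC1 i2KO. That is 2939 higher and 2371 lower, against 1866 and 2211 by limma on log2(TPM + 1). Of the targeted genes, Rnf2 (Ring1b) stood at 67.9 and 57.7 CPM in Control and 48.1, 46.6 and 50.2 CPM in PRC1 i2KO, and Ring1 (Ring1a) between 19.6 and 30.3 CPM in all 5 libraries, each of which is labelled Ring1a-/-; whether these reads lie in the deleted parts is not known from gene totals. Of the genes of the sort gate, Cd34 stood at 1548 and 1697 CPM in Control and at 10.99, 12.32 and 37.22 CPM in PRC1 i2KO, while Itga6 lay between 362.6 and 464.3 CPM in all 5 libraries. Epcam stood at 145.4 and 131.7 CPM in Control and at 393.4, 402.8 and 354.3 CPM in PRC1 i2KO. Cd34, which encodes a marker of the gate, was thus low in all 3 PRC1 i2KO libraries.

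Of the 9 genes, 8 had enough reads to be fitted and Ly6c1 did not. In these 8 genes, each PRC1 i2KO library lay above both Control libraries, as did 30% of all tested genes. By the edgeR threshold 6 of the 8 were higher; the background share is 18.8%, and nothing is read from the comparison because the genes were chosen on it. In bulk RNA, more cells with a transcript and more transcript per cell cannot be told apart.

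Ly6d encodes a GPI-anchored protein of squamous epithelia and of early B cell progenitors. Its level was 11.1 and 8.90 CPM in Control replicates 1 and 3, and 480.2, 503.5 and 448.7 CPM in PRC1 i2KO replicates 1, 2 and 3. The 3 PRC1 i2KO libraries lay close together and far above both controls. The group means were 9.99 ± 1.54 CPM (SD, n = 2) and 477.5 ± 27.5 CPM (SD, n = 3), a log2 fold change of 5.61 (SE 0.15) or 48.8-fold. In TPM, Ly6d moved from rank 4923 of the table in Control to rank 113 in PRC1 i2KO.

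Ly6e encodes a GPI-anchored protein that interferon induces in many cells and that serves as a receptor for syncytin A in the mouse placenta. It stood at 32.4 and 19.8 CPM in Control and at 525, 497.9 and 368.4 CPM in PRC1 i2KO, where replicate 3 was the lowest. The means were 26.1 ± 8.92 CPM (SD, n = 2) and 463.8 ± 83.7 CPM (SD, n = 3), with a log2 fold change of 4.18 (SE 0.29) or 18.2-fold. The deposited TPM gave the same order of libraries, from 41.7 TPM in Control replicate 3 to 946.3 TPM in PRC1 i2KO replicate 1.

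Ly6g6c encodes a Ly6 protein whose gene lies apart from the chromosome 15 cluster, in the class III region of the major histocompatibility complex on chromosome 17. Its level was 13.2 and 18.1 CPM in Control and 197, 194.1 and 215.8 CPM in PRC1 i2KO, so the groups were well separated. The log2 fold change was 3.66 (SE 0.16), or 12.7-fold. Group means were 15.6 ± 3.49 CPM (SD, n = 2) and 202.3 ± 11.8 CPM (SD, n = 3).

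Lypd3 encodes C4.4A, a GPI-anchored relative of the urokinase receptor found on suprabasal keratinocytes. It was at 164.7 and 92.4 CPM in Control and at 203.7, 207.5 and 202.4 CPM in PRC1 i2KO. Here the 2 controls differed from each other by more than Control replicate 1 differed from any PRC1 i2KO library. The means were 128.6 ± 51.1 CPM (SD, n = 2) and 204.5 ± 2.66 CPM (SD, n = 3), a log2 fold change of 0.68 (SE 0.23) or 1.6-fold. With Control replicate 1 left out it became 1.14, and with Control replicate 3 left out 0.31, so the size of the difference rests on which control is kept.

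**Figure D1:**
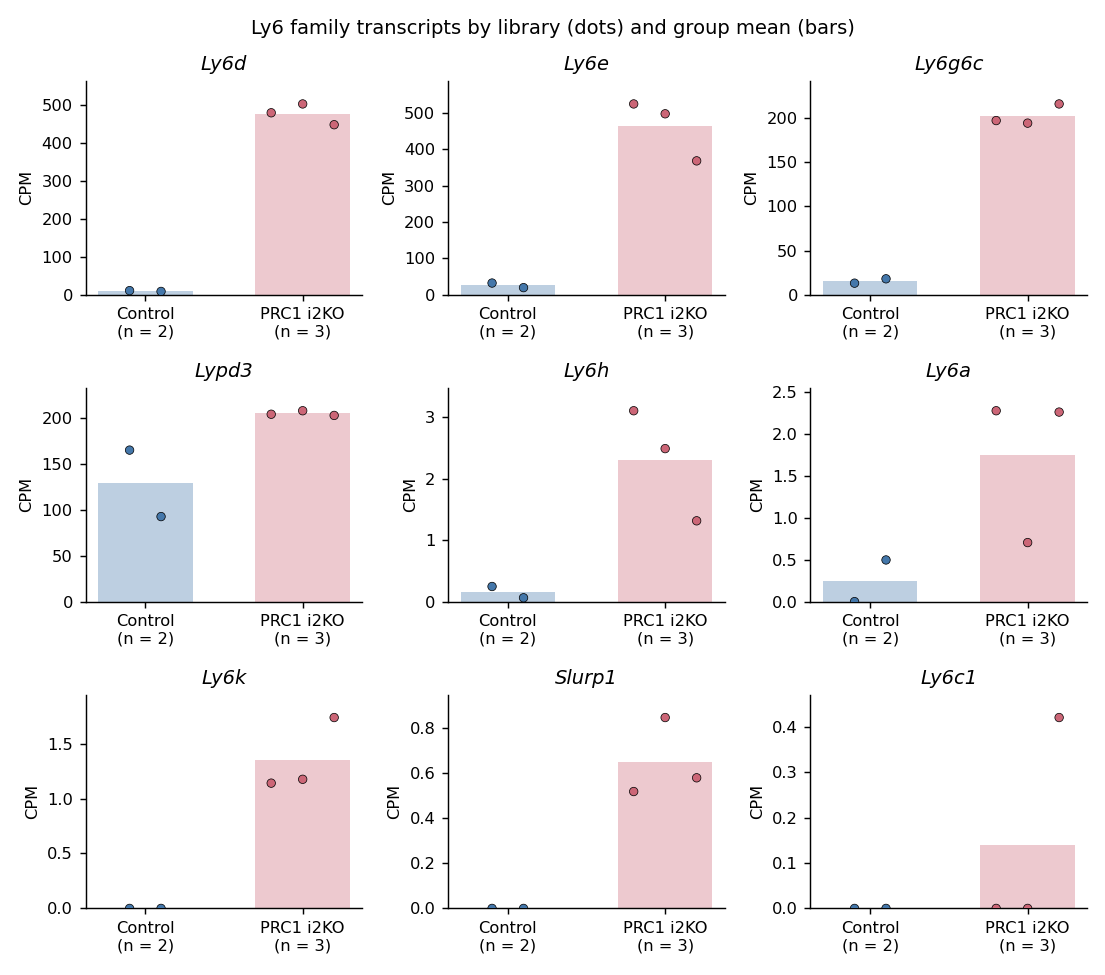
Level of each of the 9 Ly6 family genes in CPM (vertical axis, linear, from 0, scaled per gene) in the 2 Control and 3 PRC1 i2KO libraries. Dots are libraries and bars are group means. Ly6d, Ly6e and Ly6g6c show separated groups, Lypd3 starts from a high Control level of 128.6 CPM on average, and the other 5 genes stay at or under 3.11 CPM.

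The remaining 5 genes were scarce in every library. Ly6h, a family member best known from brain, where it modulates nicotinic receptors, had 2 reads in each control (0.246 and 0.0622 CPM) and stood at 3.11, 2.49 and 1.32 CPM in PRC1 i2KO. Its log2 fold change was 4.22 (SE 0.97), and the 4 Control reads limit its precision: the ratio of summed reads was 21.8 with an exact 95% binomial interval of 8.27 to 81.4, which covers counting error only. Ly6k, whose protein acts on sperm together with Tex101, had no read in either control and 11, 25 and 33 reads in PRC1 i2KO, or 1.14 to 1.74 CPM. Against a floor of 3 reads summed over both controls, Ly6k was at least 18.6-fold higher. Such bounds, here and below, take the PRC1 i2KO reads as exact and leave out their counting error. Slurp1, the secreted member, which binds nicotinic acetylcholine receptors and is mutated in the palmoplantar skin disorder Mal de Meleda, likewise had no Control read. With 5, 18 and 11 reads in PRC1 i2KO replicates 1, 2 and 3 (0.518, 0.846 and 0.579 CPM), it was at least 9.15-fold higher by the same floor. Its TPM ordered these libraries differently (0.29, 0.48 and 1.62 TPM), so the per-length level of Slurp1 in PRC1 i2KO replicate 3 is not matched by its reads.

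Ly6a encodes Sca1, the surface protein against which the cells were gated in both groups. It had 0 and 16 reads in Control replicates 1 and 3 (0 and 0.498 CPM) and 22, 15 and 43 reads in PRC1 i2KO replicates 1, 2 and 3 (2.28, 0.705 and 2.26 CPM). PRC1 i2KO replicate 2 lay just above Control replicate 3, whereas replicates 1 and 3 were both higher. The log2 fold change was 2.44 (SE 1.07), and 7.66 without Control replicate 3, a fit in which the only remaining control has no read, so that this value depends on the prior count. In PRC1 i2KO the mean level of Ly6a was 1.75 ± 0.905 CPM (SD, n = 3). Ly6c1, a marker of endothelial and myeloid cells, had 8 reads in PRC1 i2KO replicate 3 (0.421 CPM) and none in the other 4 libraries. Ly6a and Ly6c1 have close paralogs in the chromosome 15 cluster, so how reads were shared among them is uncertain.

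Per gene length, the order of the 9 genes among themselves changed between the groups. In Control, Lypd3 was highest at 153.7 ± 60.7 TPM (SD, n = 2), followed by Ly6e at 51.3 ± 13.6, Ly6g6c at 36.5 ± 8.88 and Ly6d at 32.6 ± 4.82 TPM, whose values overlap between libraries. In PRC1 i2KO the order was Ly6d at 1395 ± 71.5, Ly6e at 838.5 ± 148, Ly6g6c at 421.3 ± 29.7 and Lypd3 at 217.9 ± 4.29 TPM (SD, n = 3), and none of these neighbours overlapped in any library. Ly6h (5.45 ± 2.31 TPM), Ly6a (4.12 ± 2.32 TPM) and Ly6k (3.63 ± 0.955 TPM) followed among the 9 genes with overlapping libraries, and then Slurp1 and Ly6c1. Several relatives lay between Lypd3 and Ly6h, such as Cd59a at 15.3 and Ly6g6e at 14.5 TPM on average. As a share of the summed TPM of 49 Ly6 and urokinase receptor family genes, Ly6d went from 9.21% and 9.33% in the controls to 45.6%, 47.7% and 47.8% in PRC1 i2KO. Over the same libraries the share of Lypd3 went from 50.3% and 35.4% to 7.02%, 7.12% and 7.94%. Lypd3 itself was not lower in PRC1 i2KO; the total to which it was compared was larger.

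**Figure D2:**
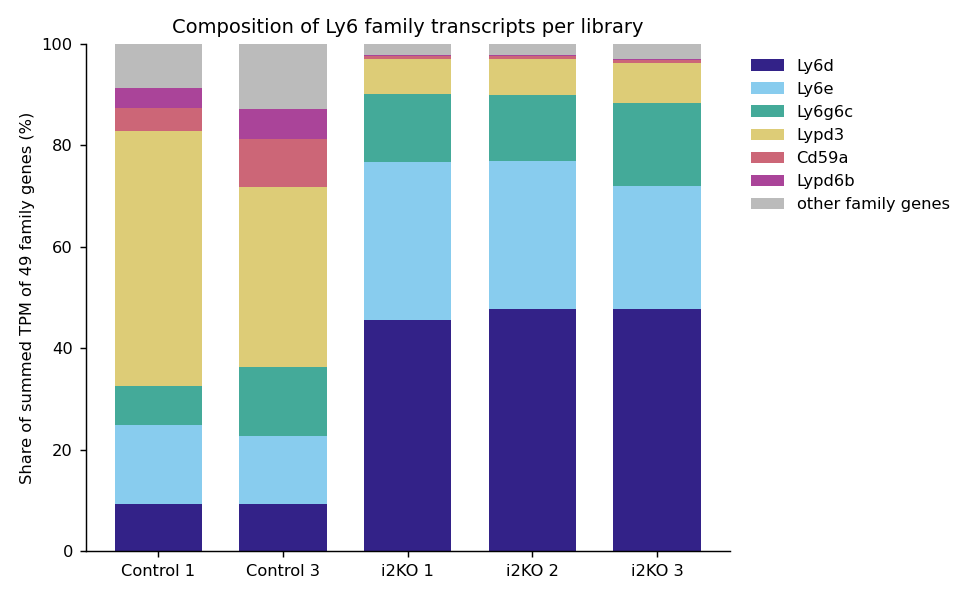
Share of the summed TPM of 49 Ly6 and urokinase receptor family genes (vertical axis, percent) in each of the 5 libraries (horizontal axis). Ly6d, Ly6e, Ly6g6c, Lypd3, Cd59a and Lypd6b are drawn singly, and all other family genes are pooled. Ly6d takes 9.21% and 9.33% in the controls and 45.6% to 47.8% in PRC1 i2KO, while Lypd3 takes 50.3% and 35.4% in the controls and at most 7.94% in PRC1 i2KO.

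The other 40 genes of the wider family were read from a list drawn up by name. Of these, 22 had no read in any library, among them Ly6g, a marker of neutrophils, and 10 had enough reads to test. Ly6g6g, a Ly6 gene by name that the list left out, was tested and not called (log2 fold change 0.22, edgeR adjusted p = 0.863). Among the 10 listed, edgeR's quasi-likelihood test called 5 higher and 2 lower in PRC1 i2KO, against 18.8% and 15.1% of all tested genes, and their median log2 fold change was 1.27 against -0.006 over all tested genes. This list, which leaves out the 9 genes of the set, and the lists below were chosen with earlier results of these data known. Their counts and medians are therefore a description. Ly6g6e comes after Ly6g6c and Ly6g6d in the gene order on chromosome 17, and its span overlaps that of Ly6g6d. It rose from 1.11 and 0.809 CPM to 5.91, 6.49 and 5.69 CPM (log2 fold change 2.704, SE 0.41, edgeR adjusted p = 0.000854). Lypd5 rose from 2.34 and 1.74 CPM to 7.67, 8.79 and 14.2 CPM (log2 fold change 2.37, edgeR adjusted p = 0.00127).

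The 3 other rises were less stable. Of 15 alternatives, the calls of Lynx1 and Pinlyp were each lost in 4 and that of Plaur in 9. Lynx1, a GPI-anchored modulator of nicotinic receptors that lies beside Ly6d, rose from 1.85 and 4.67 CPM to 7.88, 10.8 and 16.8 CPM (log2 fold change 1.77, SE 0.45, edgeR adjusted p = 0.0156, and 0.0583 without Control replicate 1). Pinlyp, a secreted family member named as a phospholipase A2 inhibitor, rose from 0 and 0.56 CPM to 1.24, 3.62 and 3.42 CPM (log2 fold change 2.92, edgeR adjusted p = 0.0324). Leaving out Control replicate 1 raised that p to 0.0776, PRC1 i2KO replicate 2 to 0.105 and PRC1 i2KO replicate 3 to 0.052, and with Control replicate 3 left out the log2 fold change became 8.35, a value that depends on the prior count because the remaining control has no read. Plaur, the urokinase receptor, rose from 1.35 and 1.77 CPM to 3.01, 5.55 and 3.69 CPM (log2 fold change 1.36, edgeR adjusted p = 0.0469). Of the fits that left out 1 library, only that without PRC1 i2KO replicate 1 kept the call for Plaur, the p being 0.158 and 0.12 with Control replicate 1 or 3 left out, and 0.186 and 0.0519 with PRC1 i2KO replicate 2 or 3 left out. With a replicate block it was 0.175.

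In the other direction, 2 relatives fell. Lypd6, whose protein binds the WNT co-receptor Lrp6, fell from 25.97 and 28.15 CPM in Control to 8.39, 7.01 and 8.90 CPM in PRC1 i2KO (log2 fold change -1.75, SE 0.20, edgeR adjusted p = 0.000134). Its close paralog Lypd6b fell from 18.5 and 22.6 CPM to 8.19, 10.2 and 12.5 CPM (log2 fold change -0.998, edgeR adjusted p = 0.00841, and 0.092 without Control replicate 3). In both genes each PRC1 i2KO library lay below both controls, as in 29.4% of all tested genes. Cd59a, which shields cells from complement, had a log2 fold change of -0.31 (edgeR adjusted p = 0.321; 0.07 without Control replicate 3), Cd59b one of -0.92 (adjusted p = 0.334) and Ly6m one of 1.18 (adjusted p = 0.348), and none of the 3 passed. Slurp2 and Ly6g6d, not tested, each had 19 reads over the PRC1 i2KO libraries, present in all 3, and none in Control, at least 5.11-fold higher by the floor of 3 reads.

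**Figure D3:**
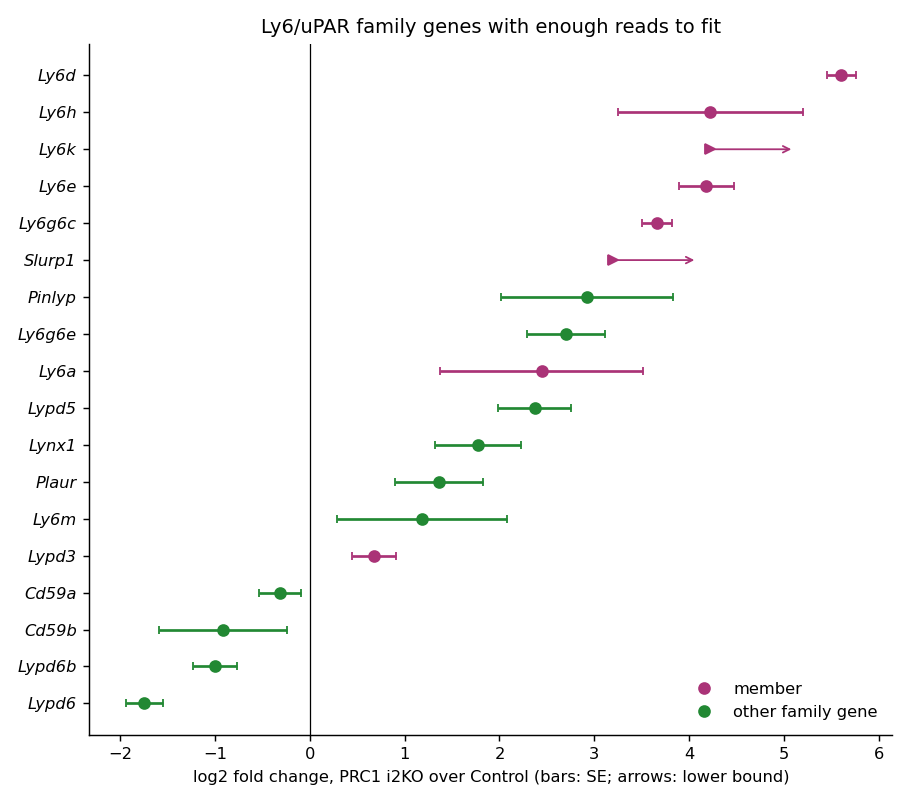
Log2 fold change of PRC1 i2KO over Control (horizontal axis) for the 8 fitted genes of the set and the 10 tested relatives (vertical axis, sorted). Points are fitted values with their SE, magenta for the set and green for relatives, and arrows for Ly6k and Slurp1 start at the lower bound against 3 Control reads. Among the points, Ly6d is farthest to the right at 5.61, while the arrows have no upper end, and Lypd6 and Lypd6b lie to the left of 0 at -1.75 and -0.998.

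The bases before the start of 3 of these genes are shown to set a member that differed widely (Ly6g6c) beside one that differed little (Lypd3) and a relative that fell (Lypd6). RefSeq promoters (GRCm38.p6, another build than the mm39 of the deposited files) were matched for Ly6c1, Ly6g6c and Lypd3 and for 25 of the 40 relatives; Ly6a, Ly6d, Ly6e, Ly6h, Ly6k and Slurp1 were not matched. Each window holds the 250 bases before the annotated start, 5′ to 3′, with CpG pairs and any TATAAA in capitals.
Ly6g6c (chr17:35067075-35067324, plus strand): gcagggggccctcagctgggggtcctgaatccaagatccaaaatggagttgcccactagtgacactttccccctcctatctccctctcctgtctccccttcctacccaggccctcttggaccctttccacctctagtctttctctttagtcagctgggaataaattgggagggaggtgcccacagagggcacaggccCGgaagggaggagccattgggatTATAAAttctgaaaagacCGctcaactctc
Lypd3 (chr7:24636320-24636569, plus strand): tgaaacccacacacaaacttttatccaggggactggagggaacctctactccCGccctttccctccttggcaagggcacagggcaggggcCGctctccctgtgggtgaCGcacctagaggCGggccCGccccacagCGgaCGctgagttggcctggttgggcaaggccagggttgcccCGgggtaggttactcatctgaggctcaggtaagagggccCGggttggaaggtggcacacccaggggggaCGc
Lypd6 (chr2:50066179-50066428, plus strand): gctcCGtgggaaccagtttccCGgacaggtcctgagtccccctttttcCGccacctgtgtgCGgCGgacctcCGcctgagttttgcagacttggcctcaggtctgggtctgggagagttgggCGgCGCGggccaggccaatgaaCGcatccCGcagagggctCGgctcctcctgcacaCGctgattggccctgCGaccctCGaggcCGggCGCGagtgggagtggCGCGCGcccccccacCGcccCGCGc

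These 3 windows were picked by how the genes differed, so no order is read from them. Among other matched genes, Cd59a and Cd59b, neither of them called, hold 0 and 1 CpG pairs. Of those called higher, Plaur holds 6, Lypd5 holds 4 and Pinlyp holds 3. The window of Ly6g6c holds 2 CpG pairs, that of Lypd3 holds 10 and that of Lypd6 holds 24, where the median of 32851 promoters of the same length is 6 and the upper quartile is 16. The Ly6g6c window has a TATAAA match whose first base lies 30 bases before the start; 12.4% of all promoters hold TATAAA on either strand. Neither Lypd3 nor Lypd6 has one. The AP-1 motif TGANTCA (6.75% of all promoters) and the Grainyhead core ACCGGT (1.86%) were also searched on both strands and matched none of the 3 windows.

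In the RefSeq gene order (GRCm38.p6), 7 of the 9 genes lie between Psca and Gpihbp1 on chromosome 15, a stretch of 45 genes. Of these, 39 were found in the deposited table and 24 had no read in any library. Only 4 genes of the stretch outside the set were tested, and 1 of them, Lynx1, was called higher, where 18.8% of all tested genes were. The neighbours Them6 (log2 fold change 1.77, edgeR adjusted p = 0.0791), Ly6g6g and Ly6m were not called; Them6 and Ly6g6g are named after their values were seen. On chromosome 17, Abhd16a, which lies among the Ly6g genes and belongs to no listed family, had a log2 fold change of -0.06 (edgeR adjusted p = 0.748). On chromosome 7, between Lypd5 and Lypd4, the 3 tested relatives Lypd5, Plaur and Pinlyp were called higher, and 1 of the 10 tested genes outside the family was, the DNA repair gene Xrcc1 (log2 fold change 0.44, edgeR adjusted p = 0.0258), against 18.8% of all tested genes. Abhd16a and Xrcc1 were likewise named after their values were seen.

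Genes for making and attaching the GPI anchor, on which most of these proteins depend, showed few calls. Of 31 genes 30 were tested, and edgeR's quasi-likelihood test called 2 higher and 2 lower (background 33.9% in either direction), with a median log2 fold change of 0.03. Pgap1, which removes the inositol acyl chain of the anchor, rose from 20.9 and 20.1 CPM in Control to 134, 120.7 and 67.8 CPM in PRC1 i2KO (log2 fold change 2.39, edgeR adjusted p = 0.00341). Pgap4, which adds a sugar side chain to the anchor, fell from 19.3 and 25.9 CPM to 9.02, 5.36 and 8.84 CPM (log2 fold change -1.57, edgeR adjusted p = 0.00167). The synthesis enzymes Pigw (log2 fold change 0.98, edgeR adjusted p = 0.0318) and Pigb (-0.54, adjusted p = 0.0254) were near the threshold. With Control replicate 1 left out these p-values became 0.129 and 0.0645, with Control replicate 3 left out 0.0947 and 0.149, and with PRC1 i2KO replicate 2 left out 0.0663 and 0.0856. That of Pigw was 0.0831 with PRC1 i2KO replicate 1 left out. A replicate block gave 0.0725 for Pigw and 0.0602 for Pigb.

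The receptors that several Ly6 proteins bind were scarce. Of 16 nicotinic acetylcholine receptor subunits, 4 were tested, and the list summed to 8.55 to 8.62 CPM in Control and 8.84 to 11.9 CPM in PRC1 i2KO. Chrna9, the alpha9 subunit, was called lower by edgeR's quasi-likelihood test (adjusted p = 0.0132, and 0.0948 without Control replicate 1 or 0.0825 with a replicate block). Chrna9 had 37 reads over both controls and 1 over the 3 PRC1 i2KO libraries, a ratio of 45.9 with an exact 95% binomial interval of 7.73 to 1860 for counting error only. No subunit was called higher, while 1 was at an unadjusted p under 0.05 (Chrnb2, log2 fold change 0.81, edgeR adjusted p = 0.0797, named after its values were seen). Chrna7, the subunit most studied with Slurp1, had no read in 3 of the 5 libraries, both controls among them, and 0.799 and 0.211 CPM in PRC1 i2KO replicates 2 and 3.

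Of 12 genes of the urokinase and plasminogen activator system, 9 were tested. By edgeR's quasi-likelihood test 4 were higher and 1 was lower, against 18.8% and 15.1% of all tested genes, with a median log2 fold change of 0.87. St14, the membrane protease matriptase, rose from 70.9 and 61.9 CPM to 179.1, 163.3 and 160 CPM (edgeR adjusted p = 2.35e-05). Lrp1, an endocytic receptor that clears protease and inhibitor complexes, fell from 368.8 and 351.6 CPM to 206.5, 227 and 224.8 CPM (edgeR adjusted p = 0.000426). Serpinb2, an inhibitor of plasminogen activators, rose from 13.4 and 11.2 CPM to 20.9, 25.5 and 20.9 CPM (log2 fold change 0.88, edgeR adjusted p = 0.00666, and 0.0715 without Control replicate 3). Leaving out Control replicate 1 left 2 genes called higher, and leaving out Control replicate 3 left 1.

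Because Ly6e and Ly6a belong to the genes that interferon induces, a list of interferon response genes was read beside them. Of 33 genes 28 were tested, and edgeR's quasi-likelihood test called 19 higher and 1 lower, against 18.8% and 15.1% of all tested genes, with a median log2 fold change of 1.55. Tap1, which carries peptides for antigen presentation, rose from 67.0 and 64.6 CPM to 225.8, 207 and 207.1 CPM (edgeR adjusted p = 4.14e-06). Oasl2 rose from 2.34 and 1.43 CPM to 19.9, 16.8 and 22.3 CPM (log2 fold change 3.48, edgeR adjusted p = 3.18e-05), and Irf9, a subunit of the factor that interferon signalling activates, rose by 1.10 on the log2 scale (edgeR adjusted p = 0.000253). Mx1, an antiviral GTPase, had no Control read and 111 reads over PRC1 i2KO, at least 29.9-fold higher by the floor of 3 reads. The member that fell, named after its values were seen, was Usp18, a negative regulator of the interferon receptor (log2 fold change -1.64, edgeR adjusted p = 0.0217). That call was not made with either control left out, with PRC1 i2KO replicate 1 or 2 left out, or with a replicate block by title numbers. Without Control replicate 3 the number called higher was 12, and on unfiltered TPM (limma) it was 11.

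**Figure D4:**
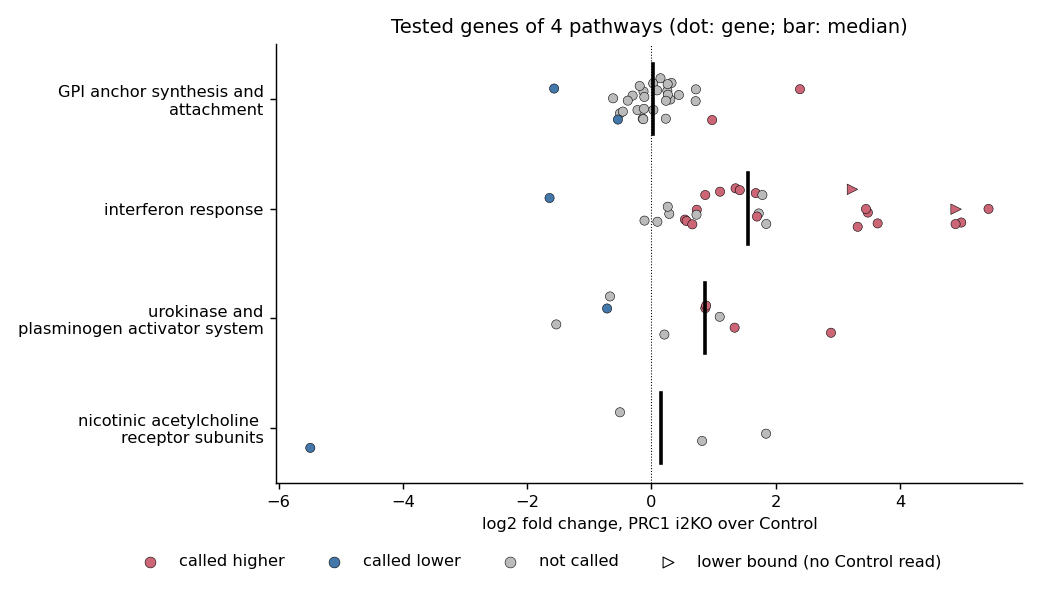
Log2 fold change of PRC1 i2KO over Control (horizontal axis) for each tested gene of 4 lists (vertical axis), with black bars at the list medians and colour for edgeR calls. Triangles are lower bounds of genes with no Control read. Most interferon genes sit to the right of 0, with a median of 1.55, and the GPI anchor genes centre near 0 with a median of 0.03.

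Markers of follicle, sebaceous and epidermal cell types also differed between the groups. Over all tested genes, 18.8% were called higher and 15.1% lower. The marker lists were chosen with earlier results of these data known, so their counts are a description. All 7 markers of the upper follicle were called higher, with a summed level of 575.5 and 804 CPM in Control and 7974 to 8168 CPM in PRC1 i2KO. All 9 sebaceous gland markers were too, from 213.3 and 219.5 CPM to between 2470 and 3099 CPM, and 9 of 10 suprabasal epidermis markers, from 1608 and 1701 CPM to between 2272 and 3192 CPM. The tenth, Calml3, was called lower, from 561.1 and 631 CPM to 252.7, 222.4 and 294.1 CPM, and is part of these sums. Of 8 bulge stem cell markers 7 were called lower, from 14560 and 16140 CPM to between 4355 and 6301 CPM. The exception was Sox9 (log2 fold change -0.24, edgeR adjusted p = 0.178). Krt15 made up the largest part of the bulge sum in each library, and Scd1 that of the sebaceous sum. Awat1, counted among the sebaceous markers, had no Control read. The part of these cells in the levels of Ly6d, Ly6e, Ly6g6c and Lypd3 was not tested.

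Vessel and blood cell markers were read beside Ly6a and Ly6c1. The 8 endothelial markers summed to 1.49 and 2.46 CPM in Control and to between 9.21 and 16.9 CPM in PRC1 i2KO, the largest part from Flt1, which was at 0 in both controls and at 13.1, 12.8 and 4.32 CPM in PRC1 i2KO and was called higher. Cldn5 was at 0 in all 5 libraries. Cdh5 and Emcn had reads in PRC1 i2KO replicate 3 alone (0.948 and 0.316 CPM), the only library with reads of Ly6c1. In PRC1 i2KO replicates 1, 2 and 3, Pecam1 was at 0, 0.564 and 1.74 CPM and Kdr at 0, 0.141 and 0.421 CPM. Tek was at 0, 0.987 and 0.474 CPM and Egfl7 at 3.21, 2.45 and 1 CPM. Pecam1, Kdr, Tek and Egfl7 had reads in both controls. The endothelial sum was lowest of the PRC1 i2KO libraries in replicate 3, at 9.21 CPM, as was Flt1, its largest part. Of the other markers, Pecam1 and Kdr were highest in that library, Tek lay between the others and Egfl7 was lowest. The 7 T cell markers summed to 0.615 and 1.24 CPM in Control and to between 2.07 and 2.49 CPM in PRC1 i2KO, with Cd3d at 0 in all libraries. The 8 myeloid and Langerhans cell markers summed to 32.5 and 38.9 CPM in Control and to between 83.8 and 121.7 CPM in PRC1 i2KO. Cd74 made up the largest part. Of 6 tested, Cd74 and H2-Aa were called higher and 4 were not called, while Lyz2 was at 0 in all libraries. Among those not called, Cd207 averaged 2.38 CPM without Cre and 2.61 CPM with it. Csf1r went from 1.61 to 1.31 CPM and Cd68 from 5.705 to 4.478 CPM. Itgam went the other way, from 0.0778 to 0.979 CPM. Fibroblast markers summed to 71.8 and 73.9 CPM in Control and 32.7 to 33.0 CPM in PRC1 i2KO. Of 4 tested, 3 were called lower, against 15.1% of all tested genes. The other, Dcn, was called higher, from 0.246 and 0 CPM to 3.42, 1.83 and 0.579 CPM. Melanocyte markers summed to 5.63 and 6.89 CPM in Control and to between 29.8 and 34.6 CPM in PRC1 i2KO. Of 4 tested, Dct and Kit were called higher, against 18.8% of all tested genes. Tyrp1 and Pmel were not called, and Mlana and Tyr were not tested. The part of cells with any of these markers in the levels of Ly6a and Ly6c1 was not tested.

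The genes whose profiles over the 5 libraries lay nearest to each member were found by the root mean square distance between centred log2 CPM values. For Ly6d these were Tlcd3b, the cysteine protease inhibitor gene Cst6 and Rassf10, each at a distance of 0.12 log2 units. For Ly6e they were Zfp750, a regulator of epidermal differentiation (0.086), the amino acid transporter gene Slc7a2 (0.105) and Mki67 (0.134). Slc1a3, Myo5b and Aadacl3 lay nearest to Ly6g6c (0.102, 0.118 and 0.143), and Anxa1, Suv39h1 and Tcte2 to Lypd3 (0.05, 0.07 and 0.07). Among the scarce genes, Ccdc187, Icam1 and Cenpi were nearest to Ly6h (0.11 to 0.134) and Cldn3, Dpp6 and B3gnt7 to Ly6a (0.382 to 0.443). With 5 libraries in 2 groups, such distances mostly compare the difference between groups, which for Cst6 was 5.63 and for Zfp750 was 4.13 on the log2 scale.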

How the data were processed

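RNA of 50000 sorted cells per sample went into polyadenylate-selected libraries, per the labels' protocols. The authors deposited expected counts (estimated reads per gene, with fractional values in 9.06% of genes) and TPM for each library. Tools listed in the submitters' processing notes are RSEM 1.3.3, STAR 2.7.9a and DESeq2 1.38.2, with the build mm39 and no role or order. Neither strandedness nor annotation is given in those notes. Expected counts were rounded, filtered with filterByExpr, scaled with TMM and fitted in edgeR 4.0.16 (R 4.3.3; robust quasi-likelihood, genotype as the only term, Benjamini-Hochberg over 15665 genes). A SE is the log2 fold change over the square root of F. Alternatives used DESeq2 1.42.0, other scalings and filters, each library left out, replicate blocks and, on log2(TPM + 1) or log2(TPM + 0.1), limma 3.58.1. Groups follow the titles. Replicates differed by more than counting noise (chi-square over its degrees of freedom, 9.8 at the lowest), and none were merged. The fit was tested on simulated data.

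The genes of the set and all lists were chosen with earlier results of these data known. Named genes are the 9 members, every tested relative, up to 4 called genes of smallest adjusted p per pathway list (the 2 of highest level where none was called), the sort gate and, for members averaging at least 1 CPM, the 3 nearest profiles (log2 CPM with a prior count of 2, predicted genes left out). A gene that this rule takes is not reported here. Protein sequences were not used here.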

Additional observations from a re-analysis of the deposited data

How the results depend on the processing

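Of the genes of the set, all fitted differences stayed positive in every alternative, from 5.38 to 5.74 on the log2 scale for Ly6d, 3.84 to 4.55 for Ly6e, 3.48 to 3.94 for Ly6g6c and 0.31 to 1.14 for Lypd3. The scarce genes moved most, Slurp1 to 0.77 and Ly6k to 2.19 on log2(TPM + 1), a scale that compresses low values. On log2(TPM + 1) and log2(TPM + 0.1) the median gene shifted to -0.132 and -0.154. Cd59a ranged from -0.59 to 0.07 with 1 library left out, the positive value being without Control replicate 3.

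By limma on log2(TPM + 1), on log2(TPM + 0.1) and on unfiltered log2(TPM + 1), the genes called higher over the table were 1866, 1881 and 1410. On each of these scales 3 relatives and 1 GPI anchor gene were higher. Of the urokinase system 3 genes were lower on both filtered TPM scales, and 2 were higher without the filter, where 1 GPI anchor gene was lower and interferon genes were 11 higher and 0 lower. Genes of the urokinase system called lower were 2 with DESeq2 size factors, with the DESeq2 test, without the low-count filter and with a stricter filter. GPI anchor genes called lower were 4 without the filter, and nicotinic subunits 0 under the stricter filter.

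With 1 library left out in turn, calls over the table ranged from 1963 to 3099 higher and from 1359 to 2757 lower. Relatives ranged from 2 to 5 higher and 1 to 2 lower, GPI anchor genes from 1 to 2 higher and 1 to 3 lower, nicotinic subunits from 0 to 1 lower, urokinase genes from 1 to 4 higher and 1 to 2 lower, and interferon genes from 12 to 18 higher and 0 to 1 lower. Where 1 control remained, it was assumed to vary like the PRC1 i2KO libraries.

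Titles give both groups the numbers 1 and 3, and descriptions number the controls differently. Deviations from the group mean correlated at 0.074 and 0.115 between libraries with the same title number. Those of Control replicate 3 and PRC1 i2KO replicate 2 correlated at -0.043. With 2 controls, the deviations of Control replicate 1 are those of replicate 3 with the sign reversed. The values are therefore not independent and cannot exclude pairing. The main fit did not pair the samples. With a replicate block by title numbers, GPI anchor genes were 1 higher and 1 lower, nicotinic subunits 0 lower, urokinase genes 2 lower and interferon genes 0 lower. With the block by description numbers, GPI anchor genes were 1 higher, nicotinic subunits 0 lower and urokinase genes 2 lower.

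Depth limits Ly6a, Ly6c1, Ly6h, Ly6k and Slurp1, for which 3 reads equal 0.369 CPM in Control replicate 1.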
